A study of Mus musculus with 34 samples.

Results

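The genes described here are 10 transcription factors of naive pluripotency in mouse embryonic stem (ES) cells, Esrrb, Nanog, Klf4, Zfp42, Klf2, Klf5, Tbx3, Tfcp2l1, Prdm14 and Nr0b1. They were taken by name from a list and were followed in all 34 RNA-seq libraries of a study of NuRD, a complex that joins chromatin remodelling to histone deacetylation and is scaffolded by the MTA proteins Mta1, Mta2 and Mta3. All 10 were found among the 48709 genes of one set of 16 libraries and the 22018 genes of another of 18 libraries, and all 10 passed the filter on low counts in every comparison.

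Naive pluripotency is the state of the preimplantation epiblast. It is held in culture by inhibitors of Mek and Gsk3 (2i) together with LIF, a medium written 2iL. LIF acts through Stat3 on Klf4 and Tfcp2l1, Gsk3 inhibition relieves the repressor Tcf7l1 at Esrrb, Klf2 and Tfcp2l1, and Nanog, Tbx3 and Prdm14 feed the same network, in which the factors raise or hold each other's expression. When the inhibitors and LIF are withdrawn in N2B27 medium these genes are switched off ahead of commitment, while formative and primed genes such as Otx2 and Pou3f1 are switched on.

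All cells were ES cells of strain 129/Ola. The first set held 4 libraries each of Control and Mta123KO cells labelled 2i+LIF, and 4 of each labelled as 48 h in N2B27 with neither inhibitors nor LIF. Library numbers run 1_1, 1_2, 2_1 and 2_2, and the leading digit is read here as the line, so that each group held 2 lines with 2 libraries each. The study's methods list Control as Mta1 +/∆ Mta3 flox/flox, so that these cells are not wild type. Mta123KO cells are listed as null for all 3 genes, with Mta2 removed from cells that already lacked Mta1 and the floxed Mta3 alleles removed last, with Cre. The single-mutant set held 3 libraries each of Mta1_del/del, Mta2_KO and Mta3_del/del cells. It also held 3 libraries each of Mta1_flox/flox, Mta2_WT and Mta3_flox/flox cells, and all were labelled 2i+LIF. The Mta1 and Mta3 deletions were made with Cre in the flox/flox parents. For Mta2 1 null line is listed, as a primary derivation, so genotype and line cannot be told apart between Mta2_KO and Mta2_WT.

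The names of the deposited files give the opposite culture to the sample labels in all 16 Control and Mta123KO libraries. Groups are named below as labelled, and "labelled 2iL" and "labelled 48h" mean no more than that. By RT-qPCR the study reported that Esrrb and Nanog fell on differentiation in N2B27, in wild-type cells and in cells without MTA proteins. Under the sample labels used here both genes stand higher at 48h, and under the file names lower. Which naming is right was not tested. With the cultures of the file names, the 2 genotype comparisons exchange places and each culture change and the difference between them turns its sign, while every size stays as it is.

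Total counts ran from 37855790 to 57602285 in the first set and from 13105820 to 40613585 in the single-mutant set, which was sequenced single-end. The ES cell markers Pou5f1, Sox2, Sall4, Lin28a and Utf1 each had a mean above 1 CPM (counts scaled to the size of the library) in every group, and the 5 summed to between 855 and 1924 CPM in a library. Mta2 fell from 123 ± 7.85 to 6.72 ± 2.12 CPM (SD, n = 4) between Control and Mta123KO labelled 2iL, and from 237 ± 8.66 to 10.5 ± 1.35 CPM (SD, n = 3) between Mta2_WT and Mta2_KO. Mta1 and Mta3 RNA fell less in Mta123KO labelled 2iL, Mta1 from 42.0 ± 6.64 to 24.6 ± 5.70 CPM (log2 −0.76 ± 0.18) and Mta3 from 65.1 ± 8.59 to 19.0 ± 4.68 CPM (log2 −1.76 ± 0.18; SD, n = 4). Mta3 fell by 2.63 on the log2 scale in Mta3_del/del (adjusted p = 0.00055), and Mta1 stood at 38.5 to 48.0 CPM in Mta1_del/del against 69.0 to 105 CPM in its parent, a difference that was not called. Trophectoderm and primitive endoderm markers were higher in sum in Mta123KO than in Control, though some single markers were lower. Their values are given beside the comparison of these genotypes. Bulk libraries cannot tell fewer cells that express a gene from less RNA per cell.

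Promoter sequences of 7 of the 10 genes were in the RefSeq table of GRCm38.p6, with 9 starts in all. The 250 bases before the start are printed for 4 of them. Nanog and Zfp42 are shown because they are the 2 genes whose change with culture was not called different between the genotypes below without a block. With the line as a block Zfp42 was called different as well. Klf4 and Tfcp2l1 are shown because their changes were among the most different. Capitals mark matches on either strand to any of 4 motifs, the octamer TTTGCAT bound by Oct4, AAGGTCA of Esrrb-type nuclear receptors, CCNCNCCC of Klf factors and TTCNNNGAA of Stat factors. All are written along the gene's strand.
Nanog: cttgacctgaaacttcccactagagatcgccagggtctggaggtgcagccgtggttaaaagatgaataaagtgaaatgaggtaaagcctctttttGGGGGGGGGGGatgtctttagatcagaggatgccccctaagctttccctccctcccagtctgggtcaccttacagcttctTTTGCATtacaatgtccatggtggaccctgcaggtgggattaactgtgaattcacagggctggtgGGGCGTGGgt
Zfp42: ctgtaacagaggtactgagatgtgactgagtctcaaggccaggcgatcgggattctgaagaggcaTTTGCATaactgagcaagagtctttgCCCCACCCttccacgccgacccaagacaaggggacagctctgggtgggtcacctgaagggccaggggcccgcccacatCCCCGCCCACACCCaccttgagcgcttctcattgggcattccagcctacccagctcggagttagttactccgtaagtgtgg
Klf4: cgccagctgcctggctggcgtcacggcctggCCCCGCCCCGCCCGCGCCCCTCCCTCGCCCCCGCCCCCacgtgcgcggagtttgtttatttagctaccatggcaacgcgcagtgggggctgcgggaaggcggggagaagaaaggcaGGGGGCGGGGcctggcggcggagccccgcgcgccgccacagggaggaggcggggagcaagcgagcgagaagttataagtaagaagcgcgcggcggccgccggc
Tfcp2l1: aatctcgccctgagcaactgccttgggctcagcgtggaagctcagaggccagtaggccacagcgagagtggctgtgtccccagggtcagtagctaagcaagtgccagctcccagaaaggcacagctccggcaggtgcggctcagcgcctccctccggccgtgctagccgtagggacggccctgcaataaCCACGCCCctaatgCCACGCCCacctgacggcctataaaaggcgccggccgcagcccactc
The windows lie at chr6:122707239-122707488 (plus strand), chr8:43307010-43307259 (minus), chr4:55532476-55532725 (minus) and chr1:118627695-118627944 (plus), each ending at the base before the start. TTTGCAT was found before Nanog and Zfp42 and before none of the other 5 genes, and was held by 4.12% of 32851 windows of the same length. A match to CCNCNCCC stood before 8 of the 9 starts, all but that of Nr0b1, and in 45.9% of all windows, where runs of G or C also match it. TTCNNNGAA was found before 1 start of Esrrb (7.02% of all windows), and AAGGTCA before none (4.08%). These are descriptions of the letters in the windows.

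Levels of different genes can be compared only per length, as CPM per kilobase of exon. On this scale Nanog, a homeobox factor at the centre of the network, was the highest of the 10 genes in all 10 groups, from a mean of 29.2 in Mta123KO labelled 2iL to 716 in Mta2_WT. In Mta123KO labelled 2iL and in Mta1_flox/flox its range over libraries overlapped that of the next gene. In Control labelled 48h the order by mean was Nanog (416 CPM per kilobase), Tfcp2l1 (189) and Esrrb (111), whose ranges did not overlap, then Klf4 (45.1), Klf2 (38.4), Zfp42 (38.3), Nr0b1 (34.5), Tbx3 (22.7), Prdm14 (20.4) and Klf5 (15.9), in which each gene overlapped the next. In Control labelled 2iL the order was Nanog (30.1), Zfp42 (13.3), Esrrb (10.3), Nr0b1 (6.74), Klf2 (6.23), Tfcp2l1 (3.82), Klf5 (2.44), Klf4 (1.53), Tbx3 (0.585) and Prdm14 (0.327). Tfcp2l1, which mediates LIF and Stat3 signals, thus stood second among the Control libraries labelled 48h and sixth among those labelled 2iL. Nanog has 2 annotated processed pseudogenes, and how reads with several alignments were counted is not given in the sources used here, so its level is uncertain.

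**Figure D1:**
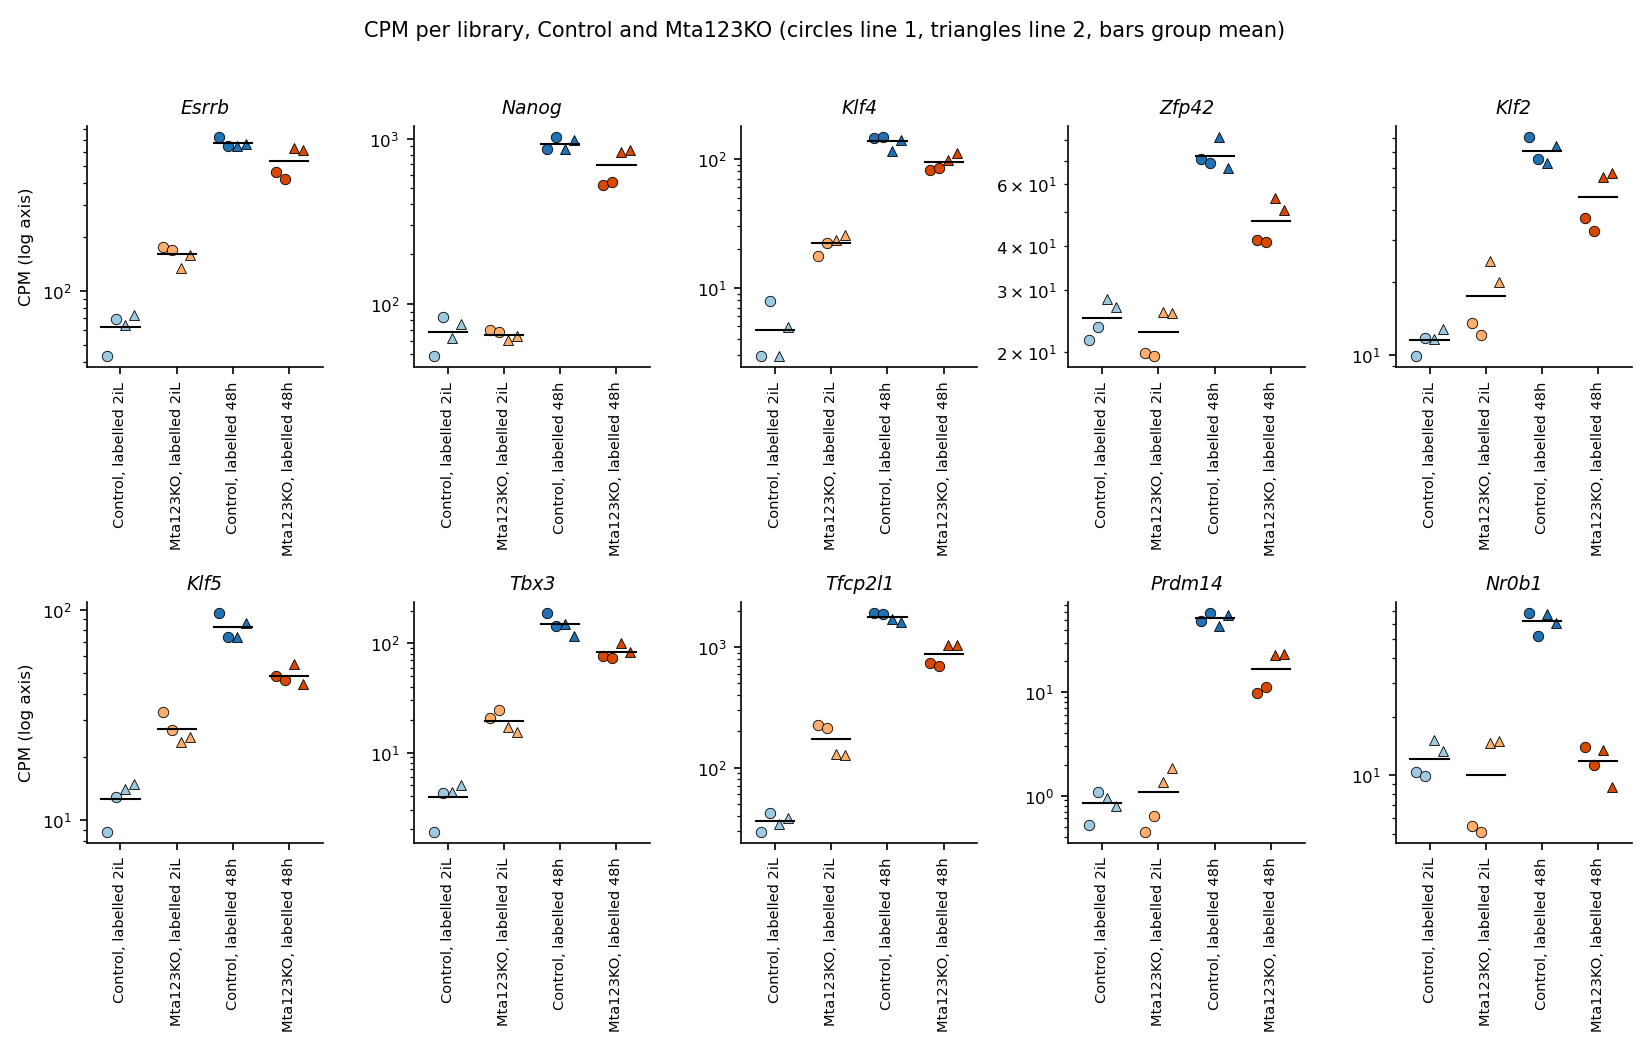
CPM of each gene (log axis) in the 16 Control and Mta123KO libraries, grouped by genotype and labelled culture; each point is a library, circles are line 1, triangles are line 2 and bars are group means. Control libraries labelled 48h lie above those labelled 2iL for all 10 genes, and the 2 Mta123KO lines labelled 2iL separate most for Prdm14 and Nr0b1.

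The change with culture was asked first in Control cells. All 10 genes were higher under the 48h label than under the 2iL label, with no overlap between the groups for any gene. The share of all genes without such overlap was not counted, here or further below. Of all 21240 genes tested in this comparison 29.5% were called higher and 29% lower at an adjusted p under 0.05 (edgeR), and the median log2 fold change was 3.62 over the 10 genes against 0.01 over all genes tested. Prdm14, a PR-domain factor that represses Fgf signalling and DNA methylation in naive cells, gave 0.520, 1.08, 0.953 and 0.798 CPM in the libraries labelled 2iL and 49.4, 59.0, 44.3 and 56.6 CPM in those labelled 48h. It was low in the former, with 26 to 52 reads per library. The log2 fold change was 5.98 ± 0.18 (SE), or 63.0-fold, with an adjusted p of 1.3e-09.

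Tfcp2l1 had 29.4, 42.2, 34.1 and 38.4 CPM in Control libraries labelled 2iL and 1927, 1872, 1717 and 1622 CPM in those labelled 48h. The difference was 50.02-fold (log2 5.64 ± 0.12, adjusted p = 2.9e-10). Tbx3, a T-box repressor that acts with Nanog downstream of PI3 kinase, rose from a mean of 3.88 ± 1.39 to 151 ± 30.2 CPM (SD, n = 4; log2 5.30 ± 0.27). Klf4, the Klf factor that answers to LIF, had 2.94, 7.88, 2.94 and 4.95 CPM in libraries labelled 2iL and 146, 147, 116 and 140.2 CPM in those labelled 48h. The lowest library labelled 48h thus held more than 10 times the highest labelled 2iL for both Tfcp2l1 and Klf4, and the Klf4 difference was log2 4.89 ± 0.28.

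The other 6 genes changed less. Nanog went from 67.6 ± 15.5 to 934 ± 79.7 CPM (log2 3.80 ± 0.16) and Esrrb, an orphan nuclear receptor and target of Nanog, from 62.4 ± 13.5 to 668 ± 36.0 CPM (log2 3.44 ± 0.15). The other Klf factors, Klf5 and Klf2, differed by log2 2.72 ± 0.16 and 2.64 ± 0.10. Nr0b1, also known as Dax1, an X-linked nuclear receptor that binds Oct4, differed by 2.37 ± 0.14. Zfp42, better known as Rex1 and used as a reporter of the naive state, had the smallest difference, from 21.6, 23.5, 28.3 and 26.9 CPM to 70.8, 68.8, 81.6 and 66.9 CPM (log2 1.54 ± 0.10, 2.90-fold, adjusted p = 1.8e-07). The 10 genes therefore spanned from 2.90-fold to 63.0-fold in the same 8 libraries. The line as a block kept all 10 calls, as did summing the libraries of each line.

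In Mta123KO cells 9 of the 10 genes were higher in libraries labelled 48h, and Nr0b1 was not called. Among all 21505 genes tested 12.4% were called higher and 10% lower, and the median log2 fold change was 1.90 over the 10 genes against 0.00 over all genes tested. Prdm14 had 0.446, 0.635, 1.36 and 1.85 CPM in Mta123KO libraries labelled 2iL and 9.85, 11.3, 22.9 and 23.4 CPM in those labelled 48h. Line 2 was above line 1 under both labels, and the difference with culture was 15.6-fold (log2 3.97 ± 0.51, adjusted p = 0.0012). Nanog changed the next most, from 65.4 ± 4.20 to 688 ± 179 CPM (log2 3.39 ± 0.19). Tfcp2l1 went from 225, 213, 130.3 and 128 CPM to 734, 703, 1043 and 1042 CPM (log2 2.33 ± 0.24). Line 1 of Mta123KO thus held the higher Tfcp2l1 level among libraries labelled 2iL and the lower one among those labelled 48h. Tbx3, Klf4, Esrrb, Klf2, Zfp42 and Klf5 differed by log2 2.11 ± 0.17, 2.06 ± 0.14, 1.73 ± 0.15, 1.37 ± 0.27, 1.04 ± 0.14 and 0.85 ± 0.12 (adjusted p from 6.9e-05 for Klf4 to 0.0082 for Klf2).

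Nr0b1 gave 5.48, 5.12, 14.7 and 15.0 CPM in Mta123KO libraries labelled 2iL and 14.1, 11.3, 13.5 and 8.69 CPM in those labelled 48h. The lines moved in opposite directions. With both lines the difference was log2 0.23 ± 0.38 (adjusted p = 0.71). Without line 2 it was 1.25 ± 0.13 (adjusted p = 1.5e-05) and without line 1 it was −0.45 ± 0.16 (adjusted p = 0.043). With the libraries of a line summed and no block, none of the 9 calls held, nor did that of any other gene (3568 genes had an unadjusted p under 0.05 in edgeR). With the line as a block, which the pairing of the libraries calls for, all 9 held after summing (adjusted p between 0.0011 and 0.010).

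**Figure D2:**
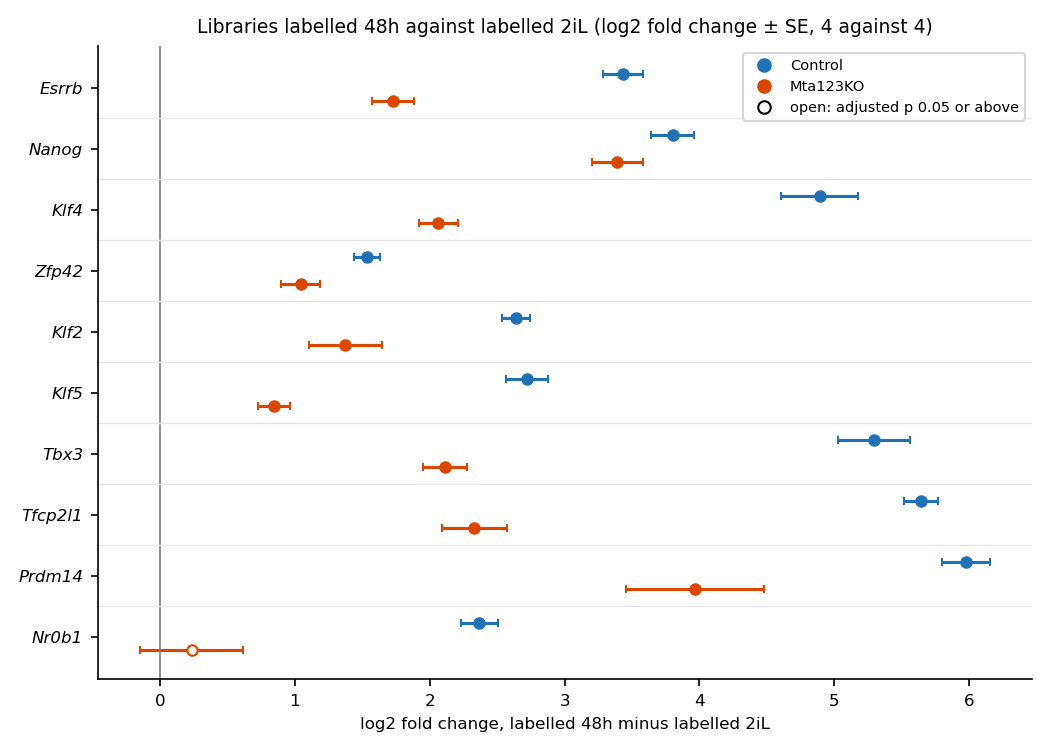
Log2 fold change between libraries labelled 48h and labelled 2iL in Control and in Mta123KO, 4 against 4 libraries each; points are edgeR estimates, bars are SE, and open points had an adjusted p of 0.05 or above. All 10 Mta123KO points lie to the left of the Control points, least so for Nanog and Zfp42.

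Whether the change with culture differed between the genotypes was tested as the interaction in one fit of the 16 libraries. The change was smaller in Mta123KO for 8 of the 10 genes and larger for none, where among 22973 genes 12.5% were called higher and 10.6% lower. The median difference of the log2 changes was −1.92 over the 10 genes and 0.00 over all genes tested. It was largest for Tfcp2l1 (−3.29 ± 0.27, adjusted p = 9.5e-07), Tbx3 (−3.17 ± 0.33) and Klf4 (−2.81 ± 0.34). Nr0b1 (−2.12 ± 0.43), Prdm14 (−1.99 ± 0.54, adjusted p = 0.014), Klf5 (−1.86 ± 0.21), Esrrb (−1.69 ± 0.22) and Klf2 (−1.25 ± 0.30) followed. For Nanog the difference was −0.39 ± 0.24 (adjusted p = 0.27) and for Zfp42 −0.48 ± 0.18 (adjusted p = 0.067), and neither was called. With the line as a block Zfp42 was called (−0.48, adjusted p = 0.00046), as it also was without Mta123KO library 1_1 or 1_2 labelled 2iL or without library 2_1 labelled 48h (adjusted p from 0.036 to 0.050), without line 1 or line 2 of Mta123KO (0.022 and 0.037) and in DESeq2 (0.039). Without line 1 of Control, 5 genes remained called, and Klf2, Prdm14 and Nr0b1 were not (adjusted p = 0.13, 0.14 and 0.059). Without line 2 of Control, Klf2 and Prdm14 were not (0.057 and 0.10). Nanog was called without line 2 of Mta123KO (−0.81, adjusted p = 0.012). Klf2, Prdm14 and Nr0b1 were also not called with the libraries of a line summed and no block (adjusted p = 0.17, 0.22 and 0.12).

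The genotypes were then compared under each label. These comparisons share their libraries with those by culture. Among libraries labelled 2iL, 6 of the 10 genes were higher in Mta123KO than in Control and none was lower, where 27.1% of 21651 genes were called higher and 24.2% lower. The median log2 fold change was 0.87 over the 10 genes against 0.01 over all genes. Tbx3 had 1.88, 4.22, 4.33 and 5.08 CPM in Control and 20.5, 24.3, 17.0 and 15.3 CPM in Mta123KO (5.03-fold, log2 2.33 ± 0.29, adjusted p = 0.00020). Tfcp2l1 had 29.4 to 42.2 CPM in Control and 128 to 225 CPM in Mta123KO (4.90-fold, log2 2.29 ± 0.22, adjusted p = 5.0e-05). Klf4 was 4.84-fold higher (log2 2.27 ± 0.31), Esrrb 2.59-fold (1.37 ± 0.16) and Klf5 2.16-fold (1.11 ± 0.17). In these 5 genes every Mta123KO library was above every Control library. Their calls held in every alternative fit, summed lines among them. The highest adjusted p over these edgeR and DESeq2 fits ran from 0.019 for Klf4 to 0.036 for Klf5. Klf2 was the weakest call (log2 0.63 ± 0.22, adjusted p = 0.036). Its Control libraries had 9.85 to 12.8 CPM, line 1 of Mta123KO had 13.6 and 12.1 CPM and line 2 had 24.5 and 20.0 CPM, so that the groups overlapped. The Klf2 call was lost without any 1 of the 4 Control libraries or of Mta123KO libraries 2_1 and 2_2 (adjusted p from 0.054 to 0.096), without either line of Control (0.21 and 0.12), without line 2 of Mta123KO (0.24) and with the libraries of a line summed (0.21).

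Nanog, Zfp42, Prdm14 and Nr0b1 were not called among libraries labelled 2iL, and their groups overlapped. Nanog gave log2 −0.03 ± 0.15, Zfp42 −0.12 ± 0.13, Prdm14 0.37 ± 0.44 and Nr0b1 −0.26 ± 0.37. The Mta123KO lines parted here too. Without line 2 of Mta123KO, Nr0b1 was called lower (log2 −1.19, adjusted p = 0.00038) and so was Zfp42 (−0.34, adjusted p = 0.024), and without line 1 Prdm14 was called higher (0.96, adjusted p = 0.021).

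Among libraries labelled 48h the direction was the opposite. Here 8 of the 10 genes were lower in Mta123KO and none was higher, where 26.6% of 21079 genes were called higher and 23.4% lower, and the median log2 fold change was −0.69 over the 10 genes against 0.01 over all. Nr0b1 had 68.4, 51.9, 67.9 and 61.0 CPM in Control and 14.1, 11.3, 13.5 and 8.69 CPM in Mta123KO. Both lines were low, and the gene fell by 2.38 ± 0.16 on the log2 scale (5.22-fold lower, adjusted p = 7.5e-06). Prdm14 had 44.3 to 59.0 CPM in Control against 9.85 and 11.3 CPM in line 1 and 22.9 and 23.4 CPM in line 2 of Mta123KO (log2 −1.63 ± 0.28, adjusted p = 0.0013). Tfcp2l1 fell by 1.01 ± 0.14 on the log2 scale, from 1622 to 1927 CPM in Control to between 703 and 1043 CPM in Mta123KO. Tbx3 (−0.84 ± 0.15), Klf5 (−0.76 ± 0.11), Klf2 (−0.63 ± 0.18), Zfp42 (−0.60 ± 0.11) and Klf4 (−0.54 ± 0.11) fell by less than 1 on the log2 scale.

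Nanog and Esrrb missed the threshold with all libraries. Nanog had 869.9, 1016, 861 and 987 CPM in Control labelled 48h, 522 and 544 CPM in line 1 of Mta123KO and 832 and 854 CPM in line 2 (log2 −0.43 ± 0.17, adjusted p = 0.056). Line 2 lay just under the Control libraries. Esrrb had 721, 647, 644 and 661 CPM in Control, 462 and 421 CPM in line 1 and 630.0 and 611 CPM in line 2 (−0.32 ± 0.13, adjusted p = 0.061). Leaving out either library of line 2 brought both past the threshold (adjusted p from 0.021 to 0.034), and leaving out the line did so at 5.6e-05 for Nanog and 0.00016 for Esrrb. DESeq2 called both (0.034 and 0.045), and Nanog was also called with no filter (0.041) and in one fit of the 16 libraries (0.042). With the libraries of a line summed 5 genes remained called, and Klf4, Zfp42 and Klf2 were not (adjusted p = 0.071, 0.054 and 0.12). Klf4 and Klf2 were also lost without line 1 of Control (0.051 and 0.097), Klf2 without line 2 of Control (0.068) and Klf4 in one fit of the 16 libraries (0.056).

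**Figure D3:**
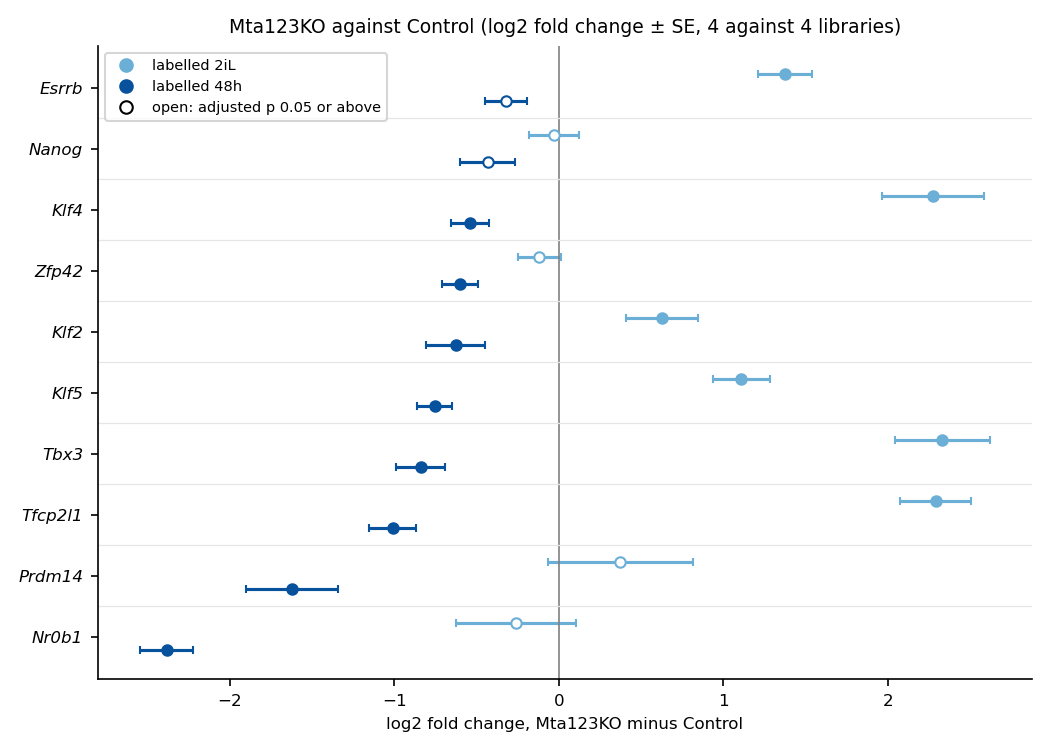
Log2 fold change of Mta123KO against Control among libraries labelled 2iL and labelled 48h, 4 against 4 libraries each; points are edgeR estimates, bars are SE, and open points had an adjusted p of 0.05 or above. Klf4, Tbx3, Tfcp2l1, Esrrb, Klf5 and Klf2 lie to the right of 0 under one label and to the left under the other, as does Prdm14 with an open point under the 2iL label.

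Markers of other cell types moved with genotype. The 8 trophectoderm markers (Cdx2, Eomes, Elf5, Gata3, Tfap2c, Hand1, Krt8 and Krt18) summed to between 19.4 and 23.2 CPM in Control labelled 2iL and to between 114 and 481 CPM in Mta123KO labelled 2iL, where all 8 were called higher. Among libraries labelled 48h they summed to between 82.0 and 101 CPM in Control and to between 174 and 770.1 CPM in Mta123KO, and 4 of the 7 tested were called higher and 1 lower. The keratins Krt8 and Krt18 carried much of the sums, at means of 203 ± 157 and 198 CPM in Mta123KO labelled 48h. Cdx2, Elf5, Gata3 and Hand1 were under 1 CPM in Control labelled 2iL, and Hand1 was under 1 CPM in Mta123KO labelled 48h. The 8 primitive endoderm markers summed to between 25.1 and 57.4 CPM in Control and to between 83.3 and 143 CPM in Mta123KO labelled 2iL, where 3 were called higher and 2 lower, and to between 8.57 and 12.1 CPM against 55.0 and 61.7 CPM under the 48h label, where 4 of 7 were called higher and 1 lower. Col4a1 carried much of these sums, at a mean of 91.3 CPM in Mta123KO labelled 2iL, with Sox17 and Foxa2 under 1 CPM in every one of the 4 groups. Gata6 was among those called lower under the 2iL label (log2 −2.68 ± 0.70), and Gata4 was the one called lower under the 48h label (−1.98 ± 0.21). Of all genes, 27.1% were called higher and 24.2% lower under the 2iL label, and 26.6% and 23.4% under the 48h label. Fibroblast markers summed to at most 8.09 CPM in these 16 libraries. The part of these cell types in the values of the 10 genes was not tested.

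The 2 Mta123KO lines differed most in Prdm14 under both labels and in Nr0b1 under the 2iL label. Their libraries overlapped for none of the genes followed here under the 2iL label, and only for Klf5 and Nr0b1 under the 48h label. The Control lines did not overlap for Zfp42, Klf5, Tbx3 and Nr0b1 under the 2iL label, or for Klf4 and Tfcp2l1 under the 48h label. Mean Nr0b1 was 5.30 CPM in line 1 and 14.8 CPM in line 2 under the 2iL label, and 12.7 and 11.1 CPM under the 48h label, where the lines overlapped. Mean Prdm14 was 0.540 CPM in line 1 and 1.61 CPM in line 2 under the 2iL label, and 10.6 and 23.1 CPM under the 48h label. The 48h values differed by −1.13 (line 1 minus line 2, log2 CPM), and those of Control by −0.20 and 0.11. Over the 1034 other genes of chromosome 1 with a mean of at least 1 CPM the median of the same difference was −0.22 and −0.23 in Mta123KO and 0.02 in both Control groups, and over 17068 genes genome-wide it was 0.0064 and −0.0033 in Mta123KO. Among the 45 genes within 5 Mb of Prdm14 the median was −0.30 and −0.51. The part of chromosome 1 in the Prdm14 difference was not tested. Tfcp2l1, on the same chromosome, differed by 0.76 in Mta123KO labelled 2iL and by −0.54 in Mta123KO labelled 48h, so in opposite directions.

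The other genes of the network were described from lists. Under the 48h label 29.5% of all genes were called higher and 29% lower in Control, and 12.4% and 10% in Mta123KO. Of 16 other genes of the naive state, 13 were higher and 3 lower under the 48h label in Control, and 10 were higher and 2 lower in Mta123KO (medians of log2 1.69 and 0.92). Their steepest members were Sp5, a target of Wnt signalling, which went from 0.0729 to 31.2 CPM in Control (log2 8.70 ± 0.21), Jam2 (5.14 ± 0.16) and Nr5a2 (4.78 ± 0.13), an orphan receptor that can act at the Oct4 gene. All 12 formative and primed genes were lower in Control libraries labelled 48h and 7 were in Mta123KO (medians −3.71 and −1.54), among them Pou3f1, which went from 73.2 to 1.45 CPM in Control (−5.65 ± 0.20) and changed by −3.39 ± 0.35 in Mta123KO. The difference of the culture change was called for 7 of the 16 naive-state genes downwards and 1 upwards, and for 8 of the 12 formative and primed genes upwards and 1 downwards. Of all genes, 10.6% were called downwards and 12.5% upwards.

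Between genotypes labelled 48h, 11 of the 16 other naive-state genes were lower in Mta123KO and 1 was higher (median −0.85), led by Tcl1 (−2.57 ± 0.45), Nr5a2 (−1.74 ± 0.17) and Sp5 (−1.49 ± 0.10). Among libraries labelled 2iL 5 of the 15 tested were higher and 5 lower (median −0.08), where 27.1% and 24.2% of all genes were, with Gbx2 (−3.24 ± 0.25) and Fgf4 (−1.96 ± 0.38) lower and Dppa3 (1.60 ± 0.22) higher. Of 16 upstream and exit regulators, which include the LIF receptor subunits Lifr and Il6st, the repressor Tcf7l1 and the Fgf target Etv5, 7 were higher and 4 lower in Mta123KO labelled 2iL, and 3 were higher and 6 lower in Mta123KO labelled 48h, where 26.6% and 23.4% of all genes were. Il6st and Lifr were higher in Control libraries labelled 48h (log2 1.60 ± 0.13 and 1.22 ± 0.08), and the Il6st change was smaller in Mta123KO (−0.99 ± 0.22, adjusted p = 0.0045). Of the 12 formative and primed genes, 8 were lower and 2 higher in Mta123KO labelled 2iL (median −1.92).

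**Figure D4:**
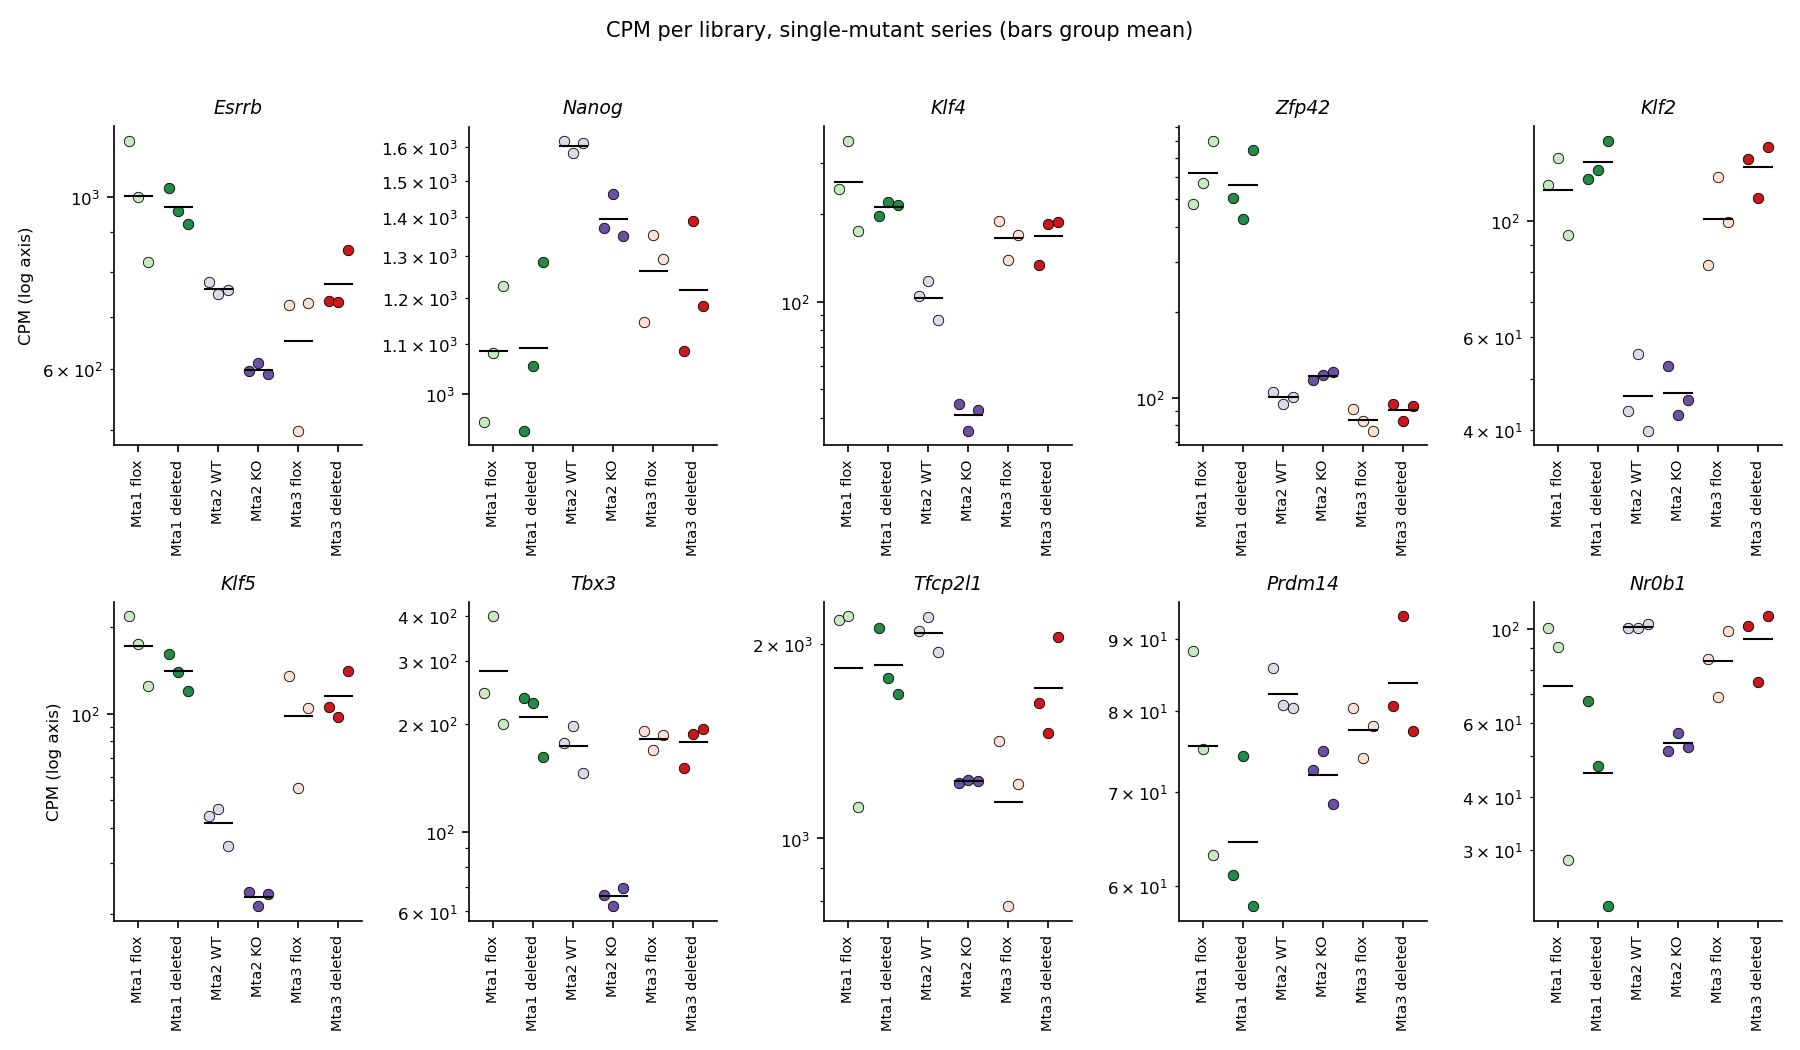
CPM of each gene (log axis) in the 18 libraries of the single-mutant set, by group; each point is a library and bars are group means. Mta2_KO lies under Mta2_WT for 8 genes, and Zfp42 stands at 425 to 801 CPM in the Mta1 libraries against 76.7 to 123 CPM in all others.

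The loss of single MTA genes was asked in the other set. In Mta2_KO, 8 of the 10 genes were lower than in Mta2_WT, Zfp42 was higher and Klf2 was not called, where 24.3% of 15602 genes were called lower and 23.5% higher. The median log2 fold change was −0.56 over the 10 genes and 0.00 over all genes tested. Tbx3 had 177, 198 and 146 CPM in Mta2_WT and 66.8, 62.1 and 69.6 CPM in Mta2_KO (2.64-fold lower, log2 −1.40 ± 0.10, adjusted p = 4.3e-06). Klf4 had 104, 117 and 86.8 CPM and 44.4, 36.1 and 42.3 CPM (2.52-fold lower, −1.34 ± 0.11). The groups were well apart for both. Nr0b1 had 100.5, 100.5 and 102 CPM and 51.5, 56.8 and 52.4 CPM (−0.92 ± 0.05), and Klf5 (−0.88 ± 0.11) and Tfcp2l1 (−0.77 ± 0.05) also fell. The falls of Esrrb (−0.35 ± 0.05), Nanog (−0.21 ± 0.05) and Prdm14 (−0.20 ± 0.05) and the rise of Zfp42 from 105, 95.4 and 101 CPM to 116, 120.1 and 123 CPM (0.25 ± 0.05) were small, with no overlap between the groups. Klf2 gave 0.01 ± 0.13. When all 18 libraries shared one estimate of the spread, 4 genes remained called lower and none higher, and Esrrb, Nanog, Zfp42, Prdm14 and Nr0b1 were not called (adjusted p = 0.13, 0.38, 0.41, 0.33 and 0.11). The labels do not say whether the 3 libraries are separate cultures, and p-values measure the spread between these libraries, which may be technical. Genotype and line cannot be told apart in this comparison.

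In Mta1_del/del none of the 10 genes was called, and none of 14561 genes was (0% higher and 0% lower; 50 had an unadjusted p under 0.05 in edgeR, and DESeq2 called 1 gene, Mta1 itself). The log2 fold changes of the 10 genes ran from −0.69 ± 0.54 for Nr0b1 to 0.17 ± 0.17 for Klf2, and the groups overlapped for all 10. Nr0b1 had 67.6, 47.3 and 22.1 CPM in Mta1_del/del and 100.3, 90.5 and 28.4 CPM in Mta1_flox/flox, with the third library low in both. With the replicate number as a block its difference was −0.63 ± 0.14 (edgeR, unadjusted p = 0.0041, adjusted p = 0.98). Klf5 (−0.28 ± 0.10), Tbx3 (−0.39 ± 0.16) and Prdm14 (−0.23 ± 0.13) were likewise lower in Mta1_del/del in all 3 same-numbered pairs, with an adjusted p of 0.98 each in edgeR with the block. In Mta3_del/del none of the 10 was called either, where 8.32% of 15522 genes were called higher and 7.84% lower. The closest was Tfcp2l1, with 1619, 1454 and 2051 CPM in Mta3_del/del and 1413, 786 and 1214 CPM in Mta3_flox/flox (log2 0.53 ± 0.21, adjusted p = 0.11), which DESeq2 called (adjusted p = 0.043). Every Mta3_del/del library was above every Mta3_flox/flox library for this gene and for Esrrb. Esrrb was not called either (log2 0.19 ± 0.15, adjusted p = 0.39 in edgeR). The 9 genes other than Tfcp2l1 lay between −0.11 ± 0.14 (Nanog) and 0.27 ± 0.14 (Klf2). Whether the single mutants differ from each other or from Mta123KO was not tested.

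**Figure D5:**
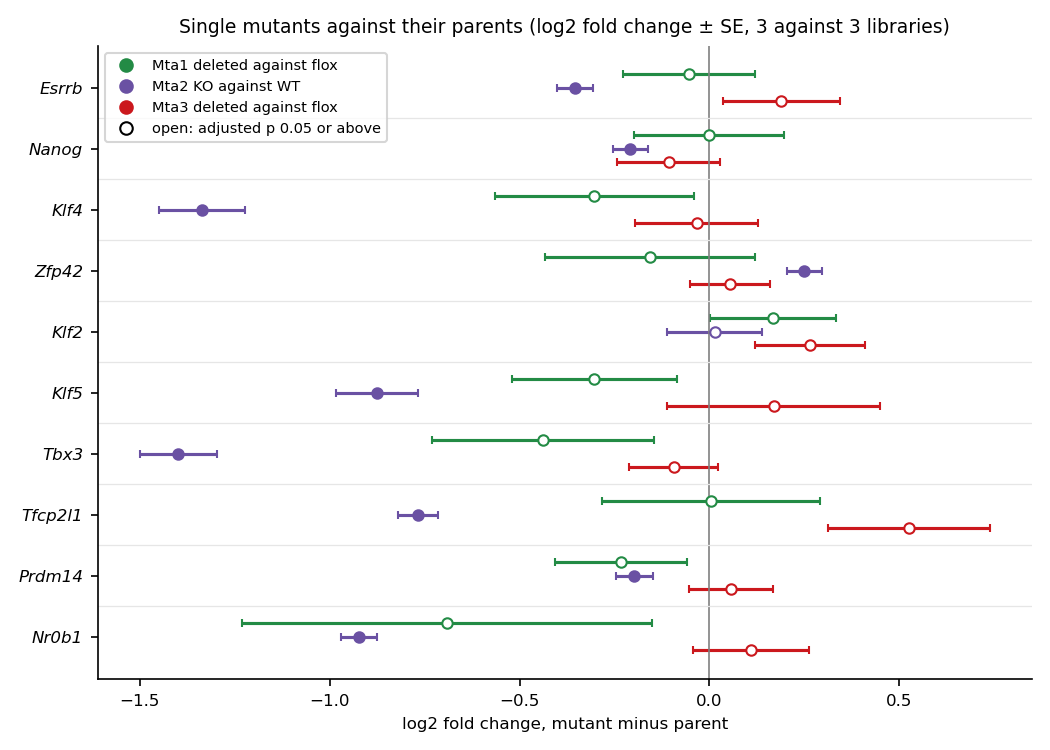
Log2 fold change of each single mutant against its flox/flox parent or, for Mta2_KO, against Mta2_WT, 3 against 3 libraries. Points are edgeR estimates, bars are SE, and open points had an adjusted p of 0.05 or above. The Mta2_KO points are lowest for Tbx3 and Klf4, at −1.40 and −1.34, and Zfp42 lies to the right of 0.

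Of the 16 other naive-state genes, 11 were lower and 3 higher in Mta2_KO (Gbx2 −1.76 ± 0.07, Socs3 −1.29 ± 0.05 and Dppa3 2.35 ± 0.05). In Mta3_del/del 1 was lower and 3 were higher (Sp5 2.69 ± 0.48 and Nr5a2 0.75 ± 0.14), and none was called in Mta1_del/del. Of all genes, 24.3% were called lower and 23.5% higher in Mta2_KO, and 7.84% and 8.32% in Mta3_del/del. Of the 7 trophectoderm markers tested in Mta2_KO 2 were higher and 4 lower, the latter including Cdx2, Krt8 and Krt18 (−3.30 ± 0.14, −2.57 ± 0.16 and −1.73 ± 0.14), and the 8 summed to between 149.8 and 159 CPM against 108 to 115 CPM in Mta2_WT. Of the 5 ES cell markers 3 fell by up to 0.51 on the log2 scale. In Mta3_flox/flox fibroblast markers summed to between 11.8 and 58.2 CPM, against at most 6.45 CPM in Mta3_del/del.

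The 2 sets can be set side by side only as values, since they differ in read type and sequencing. In the single-mutant set, labelled 2i+LIF throughout, parental and wild-type means were 1086 to 1605 CPM for Nanog, 1138 to 2080.2 CPM for Tfcp2l1 and 75.5 to 82.3 CPM for Prdm14. In Control of the other set the means were 67.6, 36.0 and 0.838 CPM in libraries labelled 2iL and 934, 1784 and 52.3 CPM in those labelled 48h. Zfp42 was higher in the Mta1 libraries, at 618 ± 164 CPM in Mta1_flox/flox, than in the Mta2_WT (100.3 ± 4.79), Mta3_flox/flox (83.6 ± 7.24) and both Control groups.

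Across the 16 Control and Mta123KO libraries the 10 genes rose and fell together, with pairwise Pearson correlations of log2 CPM from 0.53 (Klf4 with Nr0b1) to 0.99 (Esrrb with Tbx3) over 45 pairs. The libraries share groups and lines, and with so large a difference between labels such values describe the libraries. By root mean square difference of centred log2 CPM, the member nearest to Tfcp2l1 was Tbx3 (0.300). Genes outside the 10 that lay nearer than the nearest member numbered from 0 for Tbx3 to 753 for Zfp42, with 147 for Nr0b1. Among 17068 genes, members left out, the nearest gene was Klhl34 for Esrrb (0.253), Cpt1a for Nanog (0.346), Tmem117 for Klf4 (0.360), Tigar for Zfp42 (0.158), Tunar for Klf2 (0.206), 1110002J07Rik for Klf5 (0.173), Gm23497 for both Tbx3 (0.317) and Tfcp2l1 (0.145), and Cdhr1 for Nr0b1 (0.354).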

How the data were processed

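RNA was measured by RNA-seq in 34 libraries. Each library came as one deposited file of raw read counts, which the authors did not normalize. Per the study's methods reads were trimmed with Trim Galore, aligned to GRCm38/mm10 with TopHat and counted with featureCounts on Ensembl genes. The strand setting and the handling of reads with several alignments are not given in the sources used here, so overlapping and antisense genes cannot be told apart. Symbols, positions and exon lengths came from GENCODE vM21 by Ensembl identifier (48349 of 48709 and 21852 of 22018 genes matched), and 92 spike-ins were left out of library sizes.

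Counts were tested with edgeR 4.0.16 in R 4.3.3 (TMM, filterByExpr, quasi-likelihood F test), with only the groups compared in a fit, the interaction over 16 libraries excepted. P-values were adjusted by Benjamini-Hochberg over all genes tested, and 0.05 was the threshold. CPM values used TMM library sizes, and log2 CPM a prior count of 2. The edgeR steps were run on simulated counts for Mta123KO labelled 2iL, Mta1_del/del and Mta2_KO against their comparison groups. The simulated libraries were independent, without lines or pairs, and neither a culture change nor the interaction was simulated. The 10 genes and all lists were chosen with earlier results of these data known. All 10 genes and the targeted genes are named, with up to 3 genes of each other list by absolute change among those called with at least 1 CPM, and the gene nearest to each member, of which 1 is not reported here. Alternatives were DESeq2 1.42.0, its size factors in edgeR, no filter, a log2 fold change above 1, the replicate number or line as a block, one fit of a set, summed lines, spike-in scaling, exchanged cultures and leaving out each library or line; the line block on summed lines was added after seeing the data.

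Pairing was read from the replicate numbers. Same-numbered libraries deviated together between the cultures of a genotype (correlations from 0.35 to 0.41 in Control and from 0.64 to 0.69 in Mta123KO) and in the Mta1 comparison (0.52 to 0.72). Libraries of a line differed beyond counting noise (chi-square per degree of freedom from 6.32 to 19.4) but by less than lines did in Mta123KO (86.97 to 112.8), so p-values over libraries can be too small.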

Additional observations from a re-analysis of the deposited data

Results flagged for a closer look

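Results were looked at again where the change between labelled cultures differed between Control and Mta123KO by the interaction test in edgeR. This held for 8 of the 10 genes, with differences of the log2 change of −1.69 for Esrrb, −2.81 for Klf4, −1.25 for Klf2, −1.86 for Klf5, −3.17 for Tbx3, −3.29 for Tfcp2l1, −1.99 for Prdm14 and −2.12 for Nr0b1. No library stood far from the other 3 of its group for any of the 10 genes in the 40 groups of 4 tested. For independent libraries chance marks about 1 group in 20. This check can hardly mark a group whose lines lie apart, as they did for most of the genes in Mta123KO.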

How the results depend on the processing

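Counts are of the 10 genes at an adjusted p under 0.05. With the cultures of the file names, 0 genes were higher and 8 lower in Mta123KO in libraries that are 2iL by file name. In those that are 48h by file name 6 were higher and 0 lower. With culture, 0 were higher and 10 lower in Control and 0 higher and 9 lower in Mta123KO, and 8 were higher and 0 lower in the interaction. With a log2 fold change above 1 also required, 3 genes were lower in Mta123KO labelled 48h, and 2 lower and 0 higher in Mta2_KO. With summed lines and no block, 5 were lower in Mta123KO labelled 48h. In the same setting 0 were higher with culture in Mta123KO and 5 were lower in the interaction. With the line as a block on the summed lines, no call was lost with culture in Mta123KO or in the interaction. Fewer samples enter with summed lines in both settings. Without line 2 of Mta123KO 2 genes were lower in libraries labelled 2iL. Without line 1 of Mta123KO 1 gene was lower with culture in Mta123KO, and without line 1 of Control 5 were lower in the interaction. One fit of all libraries left 4 lower and 0 higher in Mta2_KO, and DESeq2 called 1 higher in Mta3_del/del; the cause was not tested. Every other alternative kept each count within 1.5 times, and leaving out single libraries moved the count higher in Mta123KO labelled 2iL between 5 and 6, and the counts lower in Mta123KO labelled 48h between 8 and 10 and in the interaction between 8 and 9.

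Among single genes, only values not called with all libraries changed sign under these alternatives, the cultures of the file names aside (log2). Against Control labelled 2iL, Zfp42 was 0.01 without line 2 of Control and 0.065 without line 1 of Mta123KO, Nr0b1 0.30 without line 1 of Mta123KO, and Nanog 0.034 and Prdm14 −0.62 without line 2 of Mta123KO. Nr0b1 with culture in Mta123KO was −0.45 without line 1. Nanog in Mta1_del/del was 0.00082 by DESeq2, 0.00082 with its size factors, 0.011 with no filter and 0.0067 in one fit, Klf2 in Mta2_KO −0.0049 with no filter, and Klf4 in Mta3_del/del 0.0087 with no filter and 0.023 in one fit. Leaving out single libraries, Nanog ran from −0.16 to 0.092 and Prdm14 from −0.041 to 0.63 against Control labelled 2iL. In Mta1_del/del Nanog ran from −0.14 to 0.12, Tfcp2l1 from −0.25 to 0.18, Zfp42 from −0.43 to 0.074, Esrrb from −0.18 to 0.060 and Klf4 from −0.52 to 0.022, and Klf2 in Mta2_KO from −0.086 to 0.17. In Mta3_del/del Klf4 ran from −0.14 to 0.13, Tbx3 from −0.16 to 0.030, Prdm14 from −0.033 to 0.11, Klf5 from −0.11 to 0.49, Nr0b1 from −0.0068 to 0.25 and Zfp42 from −0.0067 to 0.13.

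Spike-in scaling moved the median of all genes to −0.17 in Mta123KO labelled 48h, 0.16 with culture in Control and −0.20 in the interaction, where 1379 genes were called higher and 1759 lower against 2879 and 2427 by TMM. All calls of the 10 genes remained and Nanog was added in Mta123KO labelled 48h (−0.59, adjusted p = 0.028). Over all genes, the calls with culture in Mta123KO (2662 higher and 2155 lower) became 5391 and 4861 with the line as a block, 4882 and 4262 with the replicate block, 1391 and 1274 by spike-ins and 0 with summed lines. Those of the interaction became 4810 and 4338 with the line block, 406 and 304 with summed lines, and 1313 and 1031 or 1606 and 1357 without line 1 or 2 of Control. In Mta123KO labelled 2iL (5867 and 5248) summed lines gave 2253 and 1505, and in Mta123KO labelled 48h (5608 and 4940) 2568 and 1517. With culture in Mta123KO, 4595 and 4403 were called without line 1, 5265 and 4754 without line 2 and 3285 lower in one fit. Spike-ins gave 3477 higher in Mta123KO labelled 48h and 3775 lower with culture in Control (6158 by TMM), and 3447 were lower in Mta123KO labelled 2iL without line 1 of Control. In Mta2_KO (3671 and 3789) one fit gave 1252 and 1370. In the comparisons not taken as paired, same-numbered libraries correlated at −0.21 to 0.38 in Mta2 and −0.062 to 0.36 in Mta3, with 2 of 3 pairs above 0.1 in each, and 0 of 4 pairs did between genotypes. The blocks changed no other call of the 10 genes than that of Zfp42 in the interaction. Depth limits Prdm14 in libraries labelled 2iL, with 21 to 86 reads.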
